A study of Mus musculus with 24 samples.

Results

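The nuclear-encoded subunits of the respiratory chain and of ATP synthase were followed through 24 RNA sequencing libraries of mouse heart fibroblasts. Members were chosen by gene symbol, gene type and a count minimum. The symbol had to begin with Nduf, one of the letters a, b, c, s or v and a digit, or with Uqcr, with Cox and a digit from 4 to 8, or with Atp5, or to be Sdha, Sdhb, Sdhc or Sdhd, and the gene had to be protein coding with at least 10 counts in at least 3 libraries. Of 35727 gene identifiers in the deposited count table, 96 matched by name, 85 of these were protein coding, and 82 passed the count minimum. The 3 protein-coding genes below it were Cox8c, Cox7b2 and a second identifier of Atp5o. The 82 members are 35 genes of complex I, 4 of complex II, 8 of complex III, 18 of complex IV and 17 of complex V. Ndufa4 and its relative Ndufa4l2 were placed with complex IV, and Cox7a2l, which joins complexes into supercomplexes, was kept there by its name.

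Each of 8 groups, given by 4 conditions (control, Erg, Sox17 and SEG) and harvest at day 3 or day 7, held 3 libraries. Erg and Sox17 are transcription factors of endothelial cells, SEG is not spelled out, and the text given with the series states that gene expression was compared to follow how far the cells became endothelial. In all groups the labels give heart as the tissue, fibroblast as the cell type and EGM2 as the medium; they give no strain, sex, age or passage, and no way of delivering the factors. Nothing says that the libraries of a group are separate cultures, so the p-values below rest on a spread between libraries that may be technical.

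The respiratory chain sits in the inner mitochondrial membrane. Complex I takes electrons from NADH and complex II from succinate, complex III passes them to cytochrome c, complex IV hands them to oxygen, and ATP synthase, called complex V, uses the proton gradient that complexes I, III and IV build. Most subunits are encoded in the nucleus and a small set in mitochondrial DNA, and several complex IV subunits exist as ubiquitous, muscle, lung or testis forms that replace each other. Endothelial cells are known for meeting much of their energy demand by glycolysis, while the beating heart muscle relies on the respiratory chain.

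Library totals ran from 18794422 to 44586227 counts, and the members held 0.542% to 1.41% of them. Erg stood at 836 CPM (counts per library scaled to a common total) or more in all Erg and SEG libraries and Sox17 at 461 CPM or more in all Sox17 and SEG libraries, against at most 0.113 CPM of Erg and 0.508 CPM of Sox17 elsewhere. All 8 fibroblast markers on a fixed list were found in each group, with summed levels from 6634 to 10984 CPM in Sox17 at day 7 to 29734 to 32357 CPM in control at day 3. In bulk libraries a lower share of a cell type and less RNA per cell cannot be told apart. CPM here is relative to the library size after TMM scaling.

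Replicate 1 of Sox17 and replicate 1 of SEG at day 7 stood apart from their groups in a way that follows transcript length, and this matters for the respiratory chain because its genes are short. The median transcript of the members was 737 bases long, against 2695 bases for the 14763 tested genes with a known length, and the medians by complex were 782 (I), 1612 (II), 519.5 (III), 626 (IV) and 748 bases (V). A smooth trend of each library's deviation from the other libraries of its group was read at 500 and at 5000 bases. The value at 500 bases exceeded that at 5000 by 1.82 on the log2 scale in replicate 1 of Sox17 and by 0.80 in replicate 1 of SEG, both at day 7. In replicate 3 of Erg at day 7 it was 0.38, and in the 12 day 3 libraries it lay between −0.17 and 0.23. Among the 78 members with a mean of at least 5 CPM, the deviation of that Sox17 library had a median of 1.45 in the shortest 19 (at most 550 bases) and 0.81 in the longest 19 (at least 1312 bases), so it was not limited to short members. Both libraries are called outlying below, and the counts of members at day 7 are given with and without them. Values of single genes are from all 24 libraries unless stated, and a second value without both is given for part of them. Some results are also given with length offsets, which remove from each library its trend with length relative to the mean of all 24 libraries, and with it any such trend that a whole group shares.

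**Figure D1:**
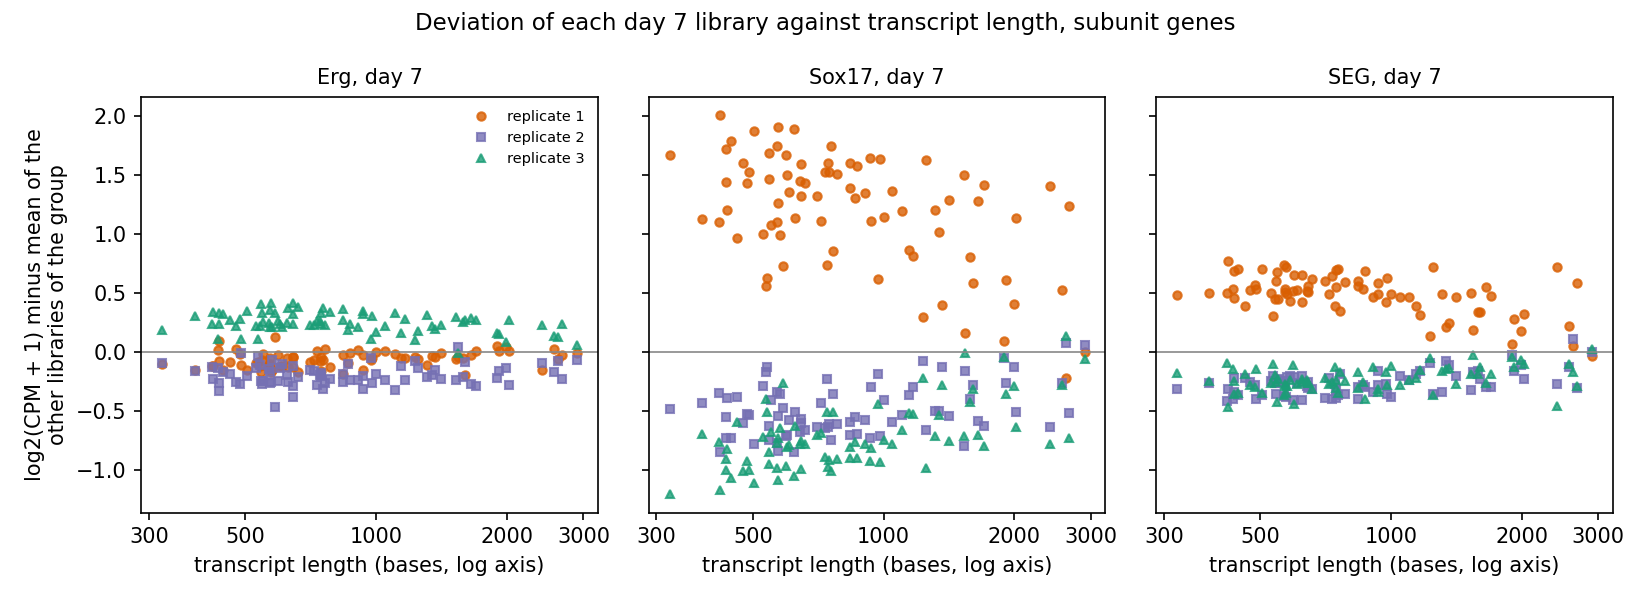
Deviation of each day 7 library from the other libraries of its group, on the log2(CPM + 1) scale, against median transcript length in bases on a log axis, with 1 point per member of at least 5 CPM (78 genes), by replicate. Replicate 1 of Sox17 and of SEG lies above the others for nearly all members and most of all for short ones, and replicate 3 of Erg lies above its group by a smaller amount.

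Some members carry doubts of identity. The strand setting of the counting is not given in the sources used here, and 37 members overlap another annotated gene. Ndufa4l2 lies opposite Shmt2 (46900 counts against 6191 of its own), Ndufs3 opposite Kbtbd4 (9245 counts against 28030), Ndufs1 opposite Eef1b2 (359546 against 41456), Ndufb6 opposite Smim27 (1315 against 40921), and Cox4i1 shares its strand with Gm20388 (10476 against 207221). Ndufb4 (9504 counts) has an expressed processed pseudogene, Ndufb4c (11792 counts), so reads may have been split between them. Values for these genes are uncertain to that extent.

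Per length, the most abundant members by the mean of all 24 libraries, outlying ones included, were Cox4i1 with 426 CPM per kilobase, the ubiquitous form of subunit 4 of cytochrome c oxidase, and Atp5b with 391, the catalytic beta subunit of ATP synthase. Cox6a1 (378), Cox8a (320.1), Uqcrq (243), Ndufa4 (217), Atp5e (208) and Cox6b1 (204 CPM per kilobase) came next. The order depended on the group: in control Atp5b stood at 390 and Cox4i1 at 349.7 at day 3, but at 288 and 320 CPM per kilobase at day 7. The lowest were the muscle forms Cox7a1 (0.789), Cox6a2 (0.805) and Cox8b (1.58), the lung form Cox4i2 (1.31) and Atp5s (3.69 CPM per kilobase). So for each pair of forms the ubiquitous gene led by far in these fibroblasts. Ndufa4l2, which hypoxia is known to raise, stood at 11.2 against 217 for Ndufa4, and Cox6b2, the testis form, at 27.5 against 204 CPM per kilobase for Cox6b1.

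Added over the 82 members, control held 6551, 6517 and 6685 CPM in replicates 1, 2 and 3 at day 3 and 5897, 5944 and 5823 CPM at day 7. The sums in Erg were 6898, 6705 and 6716 CPM at day 3 and 7816, 7292 and 8969 at day 7. Every Erg library of day 7 thus lay above every control library of that day, by 8026 ± 858 against 5888 ± 61.3 CPM (SD, n = 3), and replicate 3 stood highest. Sox17 gave 6763, 6991 and 7496 CPM at day 3 and 14275, 6656 and 6120 at day 7. SEG gave 6938, 7249.9 and 6793 CPM at day 3 and 8369.6, 6081 and 6146 at day 7. In both, the outlying replicate 1 was far above the other day 7 libraries, whose means were 6388 CPM for Sox17 and 6113 CPM for SEG, and replicates 2 and 3 of both still lay above all 3 control libraries. No p is given for these sums, since the members were chosen with results known.

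**Figure D2:**
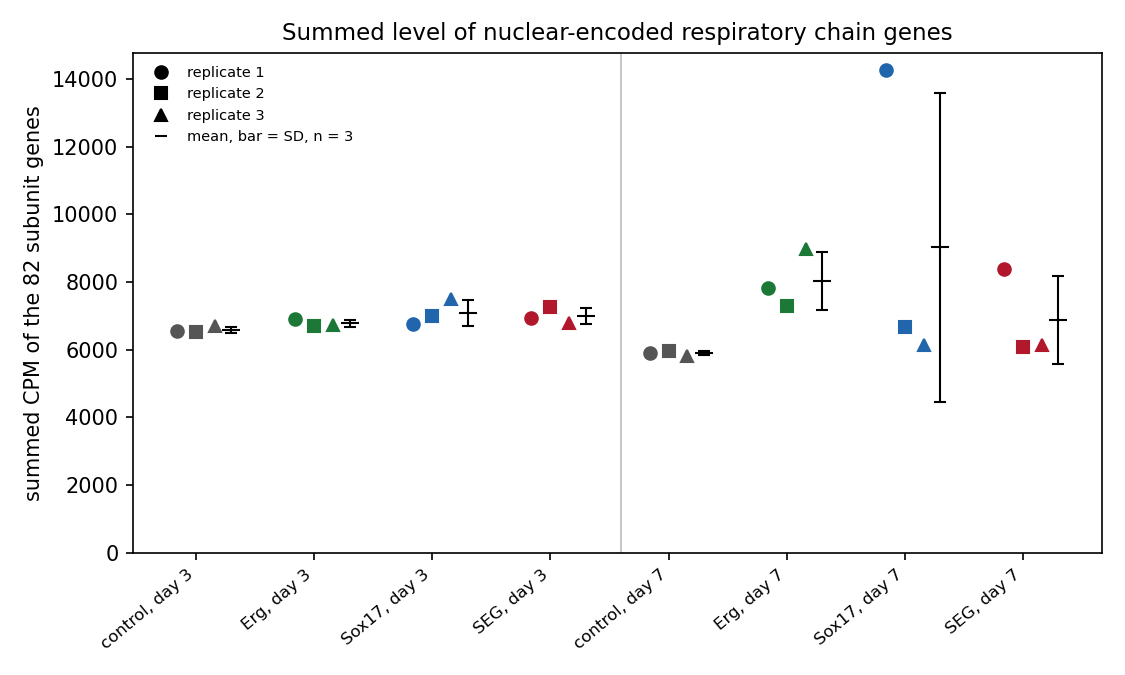
Summed CPM of the 82 members in each library, by group, with the mean and SD of 3 libraries beside the points. Erg at day 7 lies above control of that day in all 3 libraries, and replicate 1 of Sox17 at day 7 lies at 14275 CPM, far from the other libraries of its group.

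Respiratory chain genes were higher with Erg at day 7. Of the 82 members, 29 were higher and 2 lower than in control of the same day (edgeR's quasi-likelihood test, Benjamini-Hochberg adjusted p under 0.05, referred to as called), where 23.7% and 24.8% of all tested genes were called higher and lower. The median log2 change of the members was 0.43, against −0.02 over all tested genes, and 75 of 82 values were above 0. In 67 members every Erg library lay above every control library, and in 4 every one lay below, against 33.1% and 35.7% of all tested genes. Both shares of higher members exceed the background. Without both outlying libraries, whose spread enters the shared error of the fit, 69 members were higher and 2 lower (background 35.2% and 32.6%) with a median of 0.48, and all 29 higher in the fit of 24 libraries were among the 69. With length offsets the counts were 43 higher and 6 lower (background 26.3% and 28.3%) and the median fell to 0.23. Without replicate 3 of Erg at day 7, the Erg library with the highest sum, 14 were higher (background 20.1%), a share below the background, and without replicate 3 of control at day 7 the count was 19 (background 21.1%). When that Erg library was left out together with both outlying ones, an alternative chosen after seeing the data, 65 were higher and 4 lower (background 33.0% and 30.8%), with a median of 0.39.

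With Erg at day 7, the standing of the complexes against the background depended on the fit. In that of 24 libraries, complexes III, IV and V had larger shares of higher members than the 23.7% of all tested genes. Complex I had a smaller one, and complex II rested on 1 gene. In complex IV 9 of 18 members were higher and 2 lower (median log2 change 0.68), in complex III 5 of 8 were higher (median 0.50), in complex I 7 of 35 (median 0.43), in complex V 7 of 17 (median 0.38) and in complex II 1 of 4 (median 0.07). When both outlying libraries were left out, higher members numbered 15, 7, 30, 15 and 2 in the same order (background 35.2%). The share in complex I, 30 of 35, was then above the background too. The summed level went from 1287 CPM in control to 2035 CPM in complex IV, from 548 to 771 in complex III, from 1592 to 2096 in complex I, from 2068 to 2705 in complex V and from 393 to 418 CPM in complex II. Complex II, which alone has no subunit encoded in mitochondrial DNA, has the longest transcripts of the 5 and the smallest median. Whether the complexes differ from each other, and the part of length in that order, was not tested.

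Single members are given here, most of them with changes above the median of the members. Atp5mpl, a small subunit of the ATP synthase membrane part, read 25.7, 24.9 and 26.1 CPM in control and 55.2, 57.9 and 61.4 CPM in Erg at day 7. The groups did not overlap, and the log2 change was 1.19 ± 0.28 (SE), adjusted p = 0.00151. Ndufa8, an accessory subunit of complex I, read 50.4, 49.9 and 50.1 CPM in control and 92.7, 92.4 and 106 CPM in Erg. Again there was no overlap, and the log2 change was 0.95 ± 0.24 (SE), adjusted p = 0.00282. Cox4i1 read 244, 241 and 239.9 CPM in control and 402, 359 and 494 CPM in Erg. Its log2 change was 0.79 ± 0.31 (SE), adjusted p = 0.0434. That sat at the threshold: the call ended without any 1 of 16 libraries (adjusted p then 0.0502 to 0.146), and without replicate 3 of Erg at day 7 it was 0.66 (adjusted p = 0.146). The other ubiquitous complex IV members of the fixed set had log2 changes of 0.82 for Cox7a2 (adjusted p = 0.0161), 0.79 for Cox8a (adjusted p = 0.00303), 0.76 for Ndufa4 (adjusted p = 0.00186) and 0.75 for Cox6a1 (adjusted p = 0.0107). Without both outlying libraries their changes were 0.87, 0.83, 0.81 and 0.80, and that of Atp5mpl 1.23, each called. Cox6b1, the body form of a subunit on the intermembrane side, had 0.54 (adjusted p = 0.0948) and 0.59 (adjusted p = 7.07e-07) without both outlying libraries. Cox7a2l, the supercomplex factor, read 215, 212 and 215 CPM in control and 272, 236 and 319 CPM in Erg. These groups did not overlap either, but the log2 change of 0.36 ± 0.22 was not called (adjusted p = 0.177). It was called without both outlying libraries, at 0.41 (adjusted p = 2.31e-05). With length offsets the changes were smaller, at 0.88 for Atp5mpl, 0.74 for Ndufa8, 0.54 for Cox4i1, 0.55 for Cox7a2 and 0.49 for Cox8a. Ndufa4, Cox6a1 and Cox6b1 then had 0.43, 0.46 and 0.22, and each of these members was called. Cox7a2l had 0.19 with length offsets and was not called (adjusted p = 0.0613).

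Of the 4 genes of complex II, Sdha alone was called with Erg at day 7 in the fit of 24 libraries, with a small change, and Sdha and Sdhb without both outlying libraries. Sdha, the flavoprotein subunit that oxidises succinate, read 180.2, 176 and 173 CPM in control and 192, 187 and 199 CPM in Erg at day 7. The libraries did not overlap and the log2 change was 0.13 ± 0.05 (SE), adjusted p = 0.0415, a call that ended without any 1 of 18 libraries (adjusted p then 0.0501 to 0.153). Sdhb, the iron-sulphur subunit, had 0.28 ± 0.17 (adjusted p = 0.189), and 0.32 (adjusted p = 0.000401) without both outlying libraries, where Sdha had 0.17 (adjusted p = 0.000518). The membrane anchors Sdhc and Sdhd had 0.02 ± 0.09 (adjusted p = 0.895) and −0.13 ± 0.08 (adjusted p = 0.159). Among members outside complex II, Ndufs3, Ndufa7 and Ndufa13 of complex I were called in neither of these fits at day 7, with log2 changes of −0.07, −0.02 and −0.19 (adjusted p = 0.847, 0.951 and 0.615). Ndufa13 was named after its values were seen. With length offsets Ndufa7 and Sdhd were called lower, at −0.32 (adjusted p = 7.78e-05) and −0.29 (adjusted p = 0.00566). Sdha was called higher there, at 0.15 (adjusted p = 0.00758), and Sdhb, Sdhc, Ndufs3 and Ndufa13 were not called.

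**Figure D3:**
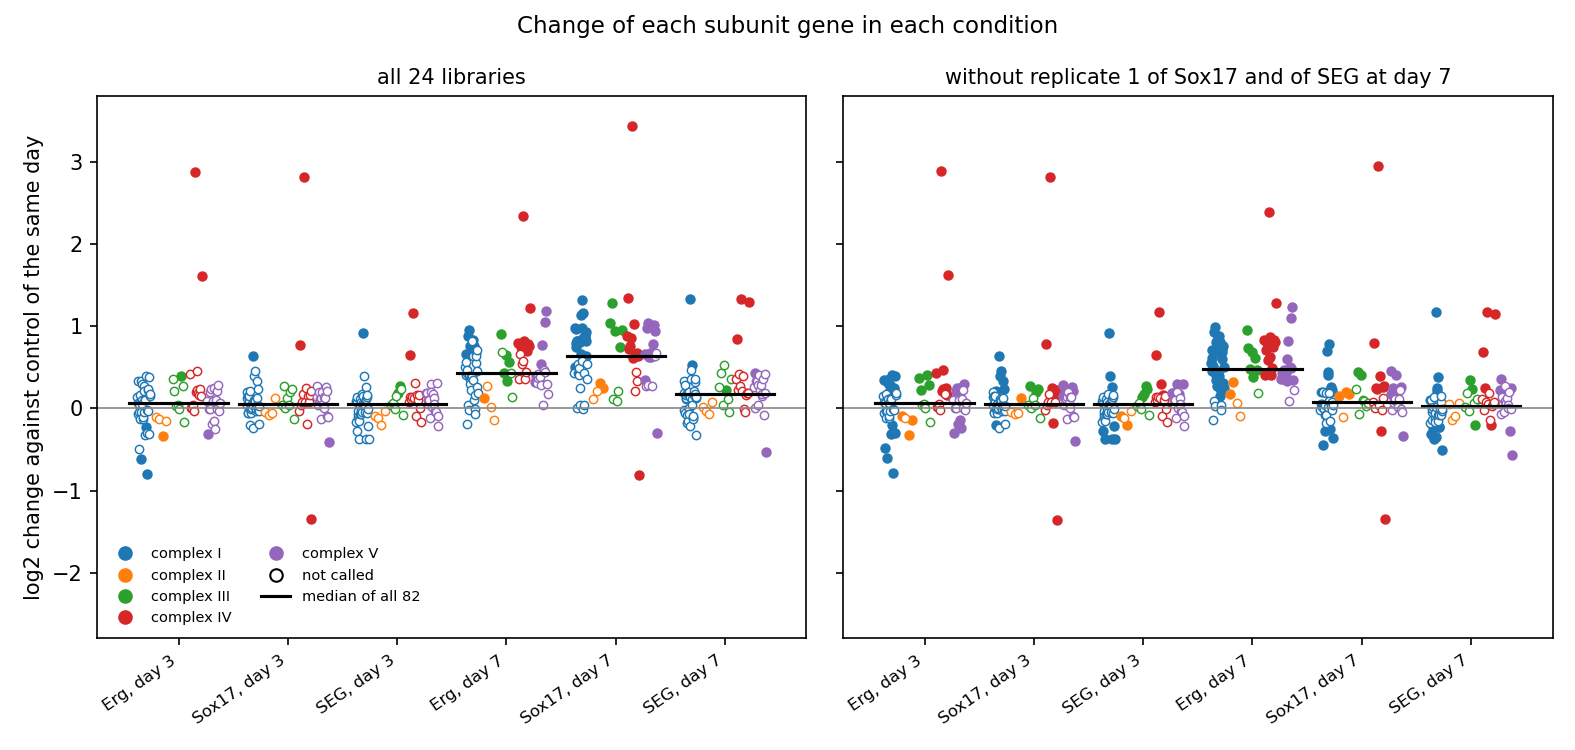
Log2 change of each member against control of the same day, by condition and complex, in the fit of all 24 libraries (left) and without both outlying libraries (right). Filled points passed the test, open points did not, bars are the median of all 82 members, and 4 members under 5 CPM on average are not drawn. The median with Erg at day 7 is 0.43 on the left and 0.48 on the right, while that with Sox17 at day 7 goes from 0.64 to 0.08.

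At day 3 Erg had no such broad effect. With 4 members higher and 6 lower (background 22.6% and 23.5% of tested genes), both shares were below the background, and the median log2 change was 0.07 against −0.01 for all genes. In the fit without both outlying libraries, 28 were higher and 15 lower (background 31.4% and 31.8%), a higher share near the background and a lower share below it. The lower members included core subunits. Ndufs3, a core subunit of complex I, read 45.0, 45.0 and 42.8 CPM in control and 26.2, 25.1 and 25.0 CPM in Erg. The log2 change was −0.80 ± 0.25 (SE), adjusted p = 0.0122, with no overlap. Ndufa7, an accessory subunit of complex I, read 52.9, 48.5 and 54.0 CPM in control and 34.2, 34.4 and 32.8 CPM in Erg, also without overlap. Its log2 change was −0.62 ± 0.20 (adjusted p = 0.0146). Sdhc fell by 0.33 on the log2 scale (adjusted p = 0.00551). Atp5b fell by 0.32 (adjusted p = 0.0399), from 753, 739.6 and 749 to 603, 600.1 and 597 CPM. Uqcrfs1, the Rieske iron-sulphur protein of complex III, rose by 0.39 (adjusted p = 0.00214), from 79.0, 75.0 and 78.0 to 102, 101 and 102 CPM. Cox4i1 read 259, 263 and 271 CPM in control and 365, 348 and 348 in Erg without overlap, but did not pass the test with all libraries (log2 change 0.42 ± 0.31, adjusted p = 0.296). It passed without both outlying libraries (0.43, adjusted p = 5.22e-05) and with length offsets (0.40, adjusted p = 0.0222).

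Within Erg, most members stood higher at day 7 than at day 3. Day 7 against day 3 within Erg gave 8 members higher and 0 lower by edgeR (background 15.6% and 14.4%; 1 lower at an unadjusted p under 0.05 and 0 by DESeq2), a median log2 change of 0.30 against 0.00 for all genes, and 54 members with all day 7 libraries above all day 3 libraries (background 28.9%). Without both outlying libraries 61 were higher and 2 lower (background 28.2% and 26.2%), and without replicate 3 of Erg at day 7 the count of higher members was 1 (background 12.2%). Without all 3 of these libraries it was 49 (background 25.1%). The higher share was thus below the background in the fit of 24 libraries and above it where both outlying libraries were out. Ndufs3 and Ndufa7, low at day 3, returned to 45.6, 40.5 and 50.3 and 51.7, 50.8 and 59.9 CPM. Their log2 changes over time were 0.84 (adjusted p = 0.0145) and 0.68 (adjusted p = 0.0126), and 0.76 (adjusted p = 0.0568) and 0.60 (adjusted p = 0.057) without that replicate. In control the median went the other way over time. Of the members, 2 were higher and 1 lower (background 16.1% and 13.4%), the median was −0.13 against 0.03, and without both outlying libraries 5 were higher and 32 lower (background 25.0% and 24%). Atp5b fell in control by 0.44 (adjusted p = 0.00921).

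The change of the Erg effect between the days, the difference of both contrasts with control, was tested directly. It was positive in 76 of 82 members with a median of 0.38 against −0.03 for all genes, but 4 members were called higher and 0 lower by edgeR (background 9.34% and 10.4%; 2 lower at an unadjusted p under 0.05 and 1 by DESeq2). When both outlying libraries were left out, the calls were 64 higher and 2 lower (background 21.9% and 22.0%), and without replicate 3 of Erg at day 7 as well they were 58 and 2 (background 20.2% and 20.4%). The members called with all libraries were Atp5b, with 0.71 ± 0.17 (SE), adjusted p = 0.00586, Uqcrc2, a core protein of complex III, with 0.34 (adjusted p = 0.00924), Ndufs1, the largest core subunit of complex I, with 0.32 (adjusted p = 0.0332), and Sdha with 0.23 (adjusted p = 0.0232). Atp5b read 546, 551 and 556 CPM in control and 724, 669 and 774 in Erg at day 7, so it was below control at day 3 and above it at day 7 with no overlap on either day. Ndufs1 was no longer called without any 1 of 6 libraries (adjusted p then 0.0549 to 0.0986), and Sdha without any 1 of 7 libraries (adjusted p then 0.0522 to 0.0664).

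With Sox17 the count of higher members at day 7 was the largest of the 3 conditions, and it rested in large part on 1 library. In the fit of all libraries 48 members were higher and 2 lower than control (background 29.5% and 25.0%), with a median log2 change of 0.64 against 0.05 for all genes. Without both outlying libraries 26 were higher and 8 lower (background 32.6% and 28.3%), the median was 0.08 against 0.02, and 22 members had the opposite sign. The share of higher members was then close to the background. Without replicate 1 of Sox17 alone 12 were higher (background 28.1%). With length offsets on all libraries the counts were 45 and 5 (background 31.3% and 28.4%) and the median 0.28, against 0.02 for all genes. Cox4i1 shows the pattern: its Sox17 libraries read 841, 265 and 234 CPM, and the log2 change went from 0.89 (adjusted p = 0.0223) to 0.08 (adjusted p = 0.43). Uqcr11, a small subunit of complex III, read 178, 54.9 and 46.9 CPM against 37.1, 40.5 and 37.6 in control, and its change went from 1.28 (adjusted p = 0.00252) to 0.44 (adjusted p = 0.000194).

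Members called higher with Sox17 at day 7 in both fits numbered 25. Cox6b2, Cox5a and Ndufb6, described below, were among them. Ndufc2, a complex I subunit of the membrane arm, read 29.8, 31.9 and 29.0 CPM in control and 101, 54.2 and 47.3 CPM in Sox17. The groups did not overlap. Its log2 change was 1.16 ± 0.19 (adjusted p = 3.98e-05) and 0.78 without both outlying libraries (adjusted p = 2.88e-09). Atp5b read 1131, 754 and 723 CPM, a change of 0.66 (adjusted p = 0.000133) and 0.46 without both outlying libraries (adjusted p = 2.18e-07). Ndufb7, an accessory subunit of complex I, went from 1.32 (adjusted p = 0.0029) to 0.41 (adjusted p = 0.000772). Of complex II, Sdhc and Sdhd rose by 0.31 and 0.25 (adjusted p = 0.00766 and 0.00997), and by 0.19 and 0.18 without both outlying libraries (adjusted p = 0.00401 and 0.00667). Atp5s, a factor associated with ATP synthase, and Ndufa4l2 fell in both fits. Atp5s had −0.30 and −0.34 (adjusted p = 0.0336 and 0.0215).

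At day 3, where no library stood far apart, Sox17 changed few members: 3 were higher and 4 lower (background 20.8% and 19.6%), the median was 0.05 against 0.01, and without both outlying libraries 21 were higher and 7 lower (background 29.9% and 27.7%). Day 7 against day 3 within Sox17 gave 10 higher and 0 lower by edgeR with all libraries (background 16.6% and 12.9%; 1 lower at an unadjusted p under 0.05 and 0 by DESeq2), and 4 higher and 18 lower without both outlying libraries (background 21.2% and 19.6%). The medians were 0.50 and −0.10, so the direction of the time course depended on the outlying library. For the change of the Sox17 effect 1 member was called higher and 0 lower by edgeR (background 7.61% and 6.66%; 0 lower at an unadjusted p under 0.05 and 0 by DESeq2), and 6 and 0 without both outlying libraries (background 13.6% and 11%).

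Few members were called with SEG. At day 3, a total of 5 were higher and 0 lower by edgeR (background 20% and 20.2%; 4 lower at an unadjusted p under 0.05 and 2 by DESeq2) with a median of 0.06 against 0.01 for all genes, and without both outlying libraries 17 were higher and 10 lower (background 29.1% and 28.3%). At day 7, a total of 8 were higher and 2 lower (background 22.5% and 21.8%, median 0.18 against 0.01). With the outlying pair left out, 14 were higher and 13 lower (background 31.3% and 26.7%), with a median of 0.03. Both shares lay below the background in each of these fits. Besides the members described below, Atp5b rose with SEG at day 7 by 0.43 (adjusted p = 0.00705) and by 0.36 without both outlying libraries (adjusted p = 7.16e-06), with 841, 685 and 697 CPM. Atp5s fell by 0.53 (adjusted p = 0.000982) and by 0.57 (adjusted p = 0.000627). Over time within SEG 5 members were higher and 2 lower (background 14.3% and 12.9%), and 7 and 30 without both outlying libraries (background 23.8% and 21.3%, median −0.16). For the change of the SEG effect 1 member was called higher and 0 lower by edgeR (background 6.09% and 5.77%; 0 lower at an unadjusted p under 0.05 and 0 by DESeq2), and 2 and 2 without both outlying libraries (background 14.2% and 11%).

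At day 7 most members stood lower in SEG than in Erg alone. In the fit of all libraries 4 members were higher and 13 lower in SEG (background 24.7% and 24.8%), with a median log2 difference of −0.31 against 0.01 for all genes, and in 22 members every SEG library lay below every Erg library and in 5 above (background 29.3% and 27.9%). The share called lower was below the background there. With the outlying pair left out, 70 of 82 were lower and 5 higher (background 34.8% and 33.4%, median −0.51), and with length offsets 33 and 7 (background 28.4% and 28.6%, median −0.17). The share of lower members was above the background in both. Without replicate 3 of Erg at day 7, a total of 7 were lower (background 22.0%), and without that library and both outlying ones 63 (background 32.5%). Ndufa8 read 72.0, 49.1 and 49.8 CPM in SEG against 92.7, 92.4 and 106 in Erg, a log2 difference of −0.77 ± 0.24 (adjusted p = 0.0116). Atp5mpl read 43.5, 28.0 and 31.6 against 55.2, 57.9 and 61.4 CPM, a difference of −0.76 ± 0.27 (adjusted p = 0.0269). Neither pair of groups overlapped, and without both outlying libraries the differences were −0.98 and −0.98. Ndufb6 and Sdhd were higher in SEG, by 0.66 and 0.21 (adjusted p = 0.0153 and 0.0291). The Ndufb6 call ended without replicate 1 or 2 of Erg or replicate 1 of SEG, and the Sdhd call without any 1 of 4 libraries (adjusted p then 0.0531 to 0.128). The fit without both outlying libraries called both, at 0.45 and 0.15 (adjusted p = 0.000177 and 0.0194). At day 3, a total of 6 members were higher and 7 lower than in Erg (background 25.7% and 25.3%), and 14 and 20 without both outlying libraries (background 33.8% and 33.4%). Cox7a2l was lower by 0.54 (adjusted p = 0.0442), a call that sat at the threshold, and Atp5b higher by 0.51 (adjusted p = 0.00158).

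Against Sox17 alone, SEG had 1 member higher and 1 lower at day 3 (background 14% and 14.2%), namely Ndufa4l2 and Cox6b2, and 3 and 12 without both outlying libraries (background 23.8% and 24.7%). At day 7 it had 2 higher and 13 lower (background 18.8% and 21.2%, median −0.48 against −0.03), and 4 and 13 without both outlying libraries (background 23.7% and 23.5%, median −0.09). The lower share was below the background in both fits, and 10 of the lower members were called in both. Single libraries moved this count from 2 without replicate 1 of Sox17 (background 22.0%) to 63 without replicate 3 of Sox17 (background 26.4%).

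With Erg and with Sox17, Cox6b2 had the largest rise of any called member on both days, and it was called higher in every condition on both days. It encodes the testis form of a complex IV subunit on the intermembrane side. The gene (ENSMUSG00000051811, chromosome 7, 4751792 to 4753094, minus strand of mm10) was lowest in control on each day. At day 3 it read 0.948, 1.04 and 1.38 CPM in control, 8.98, 8.59 and 7.56 in Erg, 7.70, 6.92 and 9.39 in Sox17 and 2.25, 2.98 and 2.36 CPM in SEG. Every library with a factor lay above every control library, and SEG lay between control and both single factors. The log2 changes against control were 2.89 ± 0.32 (adjusted p = 3.08e-07) with Erg, 2.82 ± 0.32 (adjusted p = 3.65e-07) with Sox17 and 1.17 ± 0.34 (adjusted p = 0.00888) with SEG. At day 7 it read 3.91, 3.95 and 3.81 CPM in control, 20.6, 16.7 and 22.1 in Erg, 68.5, 32.3 and 26.3 in Sox17 and 12.2, 8.66 and 8.51 CPM in SEG. The order was control, SEG, Erg and Sox17 with no overlap between any pair of these groups. The changes were 2.35 ± 0.27 (adjusted p = 6.41e-07) with Erg, 3.45 ± 0.28 (adjusted p = 2.46e-09) with Sox17 and 1.33 ± 0.27 (adjusted p = 0.000461) with SEG, and 2.95 and 1.18 without both outlying libraries for the last pair.

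In SEG, Cox6b2 was lower than with either factor alone. The log2 differences were −1.72 (adjusted p = 3.61e-05) from Erg and −1.65 (adjusted p = 0.000109) from Sox17 at day 3, and −1.02 (adjusted p = 0.00232) and −2.12 (adjusted p = 1.54e-06) at day 7. It also rose between the days in all 4 conditions, by 1.78 in control, 1.25 in Erg, 2.41 in Sox17 (1.91 without both outlying libraries) and 1.94 in SEG (adjusted p = 0.000322, 0.000951, 9.62e-07 and 2.45e-05). Its partner Cox6b1 was not called in any of the 3 comparisons at day 3, with log2 changes of −0.03, 0.17 and 0.14 (adjusted p = 0.943, 0.651 and 0.729). Over the 8 group means, which share libraries' depth and composition, the tested genes most like Cox6b2 by Pearson's r were Inka2 (0.995), Dlgap4 (0.991), Tmem250-ps (0.978), Dusp1 (0.978) and Lrrc14 (0.970). The most similar member was Ndufs7 with 0.926.

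**Figure D4:**
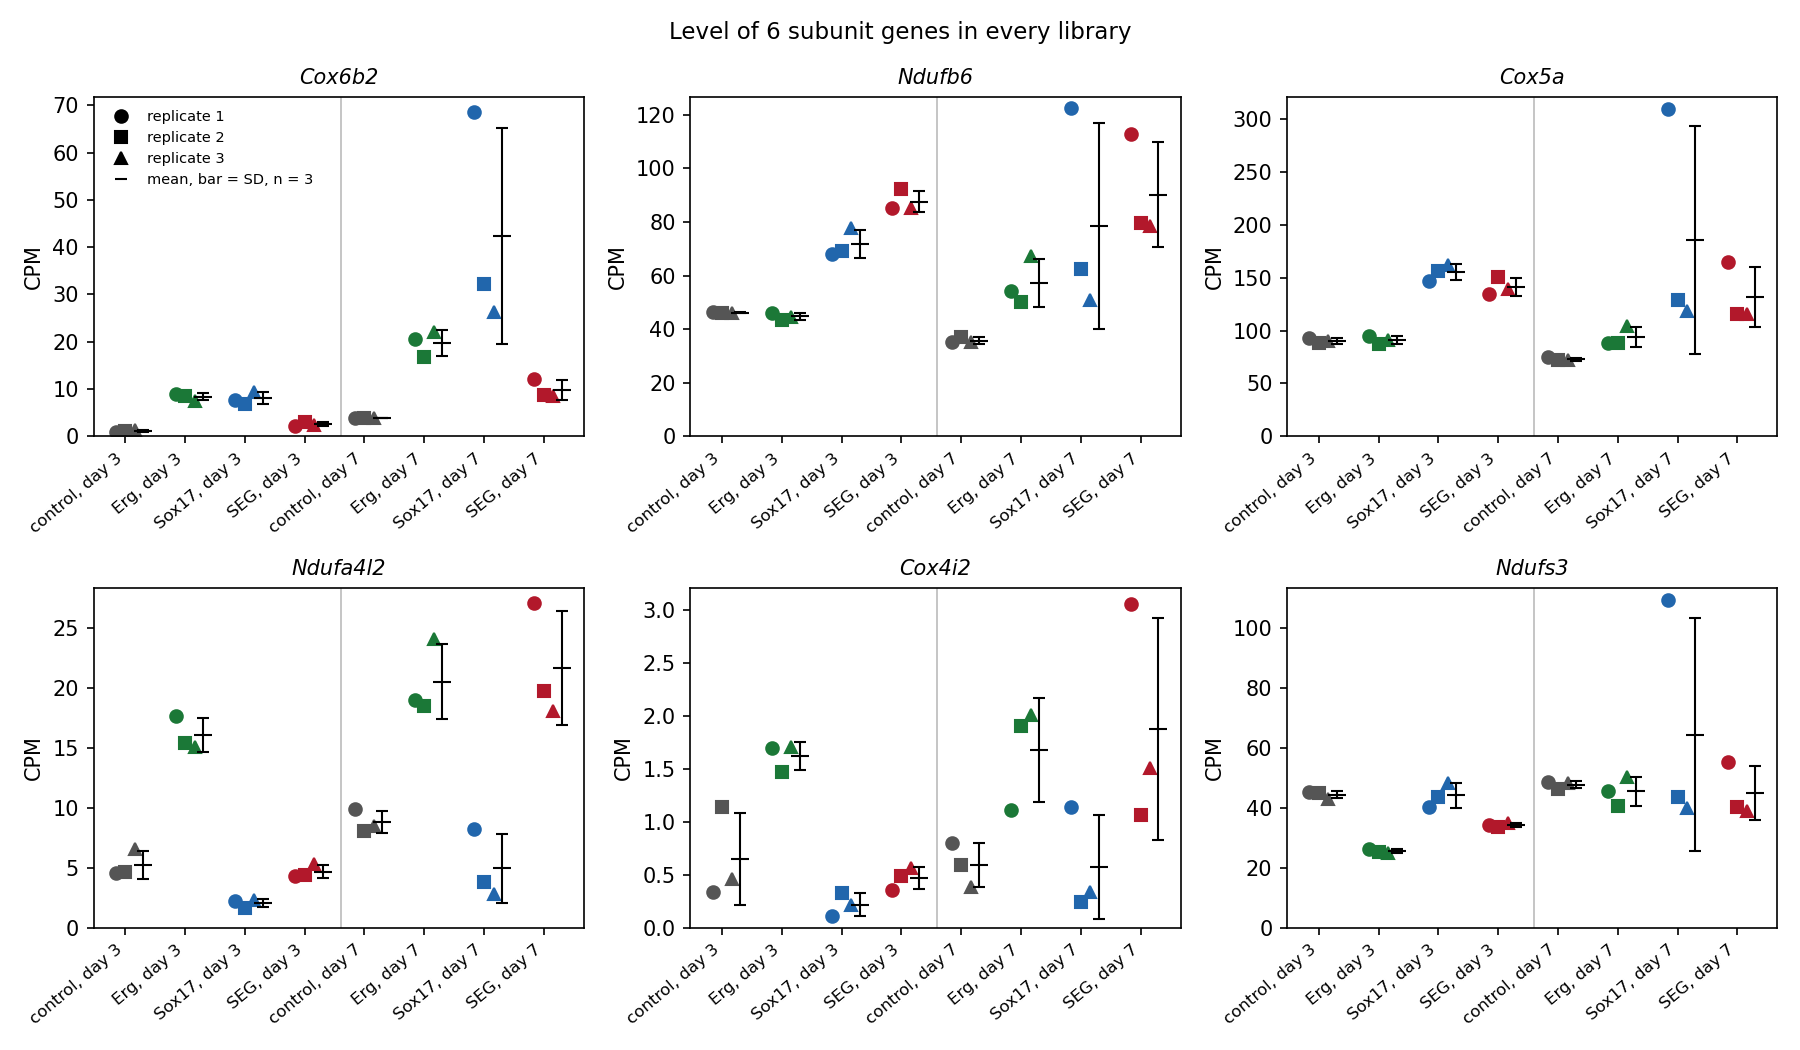
Level in CPM of 6 members in every library, by group, with the mean and SD of 3 libraries. Cox6b2 lies above control in all factor groups on both days, Ndufb6 and Cox5a at day 3 lie above control in Sox17 and SEG but not in Erg, and Ndufa4l2 lies above control in Erg on both days.

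At day 3 Ndufb6 and Cox5a were called higher with Sox17 and with SEG but not with Erg. Ndufb6 is an accessory subunit in the membrane arm of complex I (ENSMUSG00000071014, chromosome 4, 40270591 to 40279421, minus strand), and Cox5a a subunit on the matrix side of complex IV (ENSMUSG00000000088, chromosome 9, 57521274 to 57532426, plus strand). Ndufb6 at day 3 read 46.4, 45.8 and 46.2 CPM in control, 46.1, 43.5 and 44.5 in Erg, 68.0, 69.3 and 77.6 in Sox17 and 85.1, 92.1 and 85.3 CPM in SEG. Control and Erg lay together, Sox17 above both and SEG above Sox17, with log2 changes of −0.04 (adjusted p = 0.892) with Erg, 0.63 ± 0.22 (adjusted p = 0.0229) with Sox17 and 0.92 ± 0.22 (adjusted p = 0.00168) with SEG. SEG against Sox17 was 0.29 ± 0.21 (adjusted p = 0.369), which did not pass. The Sox17 call was lost without any 1 of 4 libraries (adjusted p then 0.0567 to 0.074). At day 7 it read 35.1, 37.0 and 35 CPM in control, 54.1, 50.3 and 67.1 in Erg, 122, 62.4 and 50.9 in Sox17 and 113, 79.4 and 78.5 in SEG. All 3 factor groups then lay above control, by 0.68, 1.14 and 1.34 (adjusted p = 0.0139, 0.000177 and 3.87e-05), and by 0.73, 0.70 and 1.18 without both outlying libraries.

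Cox5a at day 3 read 93.0, 87.8 and 90.1 CPM in control, 94.5, 87.2 and 91.1 in Erg, 147, 156 and 162 in Sox17 and 134, 151 and 139 CPM in SEG. Erg again overlapped control (0.01, adjusted p = 0.982), while Sox17 (0.78 ± 0.24, adjusted p = 0.012) and SEG (0.65 ± 0.24, adjusted p = 0.0343) lay above it without overlap. The SEG call was lost without any 1 of 6 libraries (adjusted p then 0.0543 to 0.0937). At day 7 it read 74.7, 72.4 and 72.1 CPM in control, 88.1, 88.6 and 104 in Erg, 309.5, 129 and 118 in Sox17 and 165, 115 and 115 CPM in SEG. The changes were 1.35 (adjusted p = 8.42e-05) with Sox17 and 0.85 (adjusted p = 0.00614) with SEG, and 0.79 and 0.69 without both outlying libraries (adjusted p = 9.9e-10 and 1.2e-08). With Erg the change was 0.36 (adjusted p = 0.219), and 0.41 (adjusted p = 6.71e-06) without both outlying libraries. The genes most like Ndufb6 over the 8 group means were Palld (0.971), N4bp3 (0.970) and Spata13 (0.969), and those most like Cox5a were Relt (0.989), Magohb (0.987) and Dda1 (0.984). Between Ndufb6 and Cox5a themselves r was 0.880.

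The promoters of Cox6b2, Ndufb6 and Cox5a are shown because these 3 members were called higher with both Sox17 and SEG at day 3. Each line gives the 250 bases before the transcription start in RefSeq's annotation of GRCm38.p6, 5′ to 3′ on the gene's strand: chr7:4753095-4753344 (minus strand) for Cox6b2, chr4:40279422-40279671 (minus) for Ndufb6 and chr9:57520982-57521231 (plus) for Cox5a. Capitals mark matches, on either strand, to short core motifs fixed for the search: CCGGAAG (ETS factors, the family of Erg and of GABPA), GCGC, 2 bases of any kind and GCGC (NRF1), GGGCGGG (SP1), AAGATGGC (YY1), ACAAT (SOX factors) and ACGTG (HIF).
Cox6b2: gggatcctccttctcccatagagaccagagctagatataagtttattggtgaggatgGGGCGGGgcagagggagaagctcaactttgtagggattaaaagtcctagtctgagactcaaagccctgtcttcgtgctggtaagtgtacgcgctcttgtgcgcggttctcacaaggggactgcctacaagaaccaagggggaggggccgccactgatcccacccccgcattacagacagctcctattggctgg
Ndufb6: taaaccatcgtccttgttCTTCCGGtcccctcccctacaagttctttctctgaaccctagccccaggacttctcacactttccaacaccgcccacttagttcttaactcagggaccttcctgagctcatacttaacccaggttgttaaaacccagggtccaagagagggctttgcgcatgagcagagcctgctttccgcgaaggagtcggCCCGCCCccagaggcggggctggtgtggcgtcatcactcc
Cox5a: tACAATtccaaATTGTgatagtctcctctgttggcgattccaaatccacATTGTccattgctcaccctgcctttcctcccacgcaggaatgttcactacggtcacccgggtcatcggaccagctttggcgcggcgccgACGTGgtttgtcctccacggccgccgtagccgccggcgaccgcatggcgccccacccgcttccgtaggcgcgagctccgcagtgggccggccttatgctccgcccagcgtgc

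The Cox6b2 window held 1 SP1 match, at position −193 from the start. Ndufb6 held 1 ETS match at −232 and 1 SP1 match at −40, both on the reverse strand. Cox5a held 3 SOX matches at −249, −239 and −201 and 1 HIF match at −112. A promoter was found for 67 of the 82 members; those of Ndufa4l2 and Cox4i2 were among the 15 not matched. Of the 67, 12 (17.9%) held the ETS motif against 7.83% of 27025 genes, and 14 (20.9%) the NRF1 motif against 5.64%. The shares were 29.9% against 25.8% for SP1, 1.49% against 1.83% for YY1, 23.9% against 30.9% for SOX and 22.4% against 18.5% for HIF. The 27025 genes were taken without regard to expression here, whereas the members passed a count minimum. The shares thus compare unlike sets, and no excess particular to the members can be read from them. A match describes letters in a window and shows no binding.

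Ndufa4l2 and Cox4i2, complex IV relatives known from hypoxia and lung, moved with Erg. Ndufa4l2 (ENSMUSG00000040280, chromosome 10, 127514967 to 127517154, plus strand) at day 3 read 4.52, 4.61 and 6.55 CPM in control, 17.7, 15.4 and 15.1 in Erg, 2.24, 1.65 and 2.27 in Sox17 and 4.30, 4.37 and 5.27 CPM in SEG. Erg lay above and Sox17 below control without overlap, and SEG overlapped control. The log2 changes were 1.62 ± 0.28 (adjusted p = 7.63e-05), −1.35 ± 0.30 (adjusted p = 0.00108) and −0.17 ± 0.29 (adjusted p = 0.701). At day 7 it read 9.87, 8.05 and 8.50 CPM in control, 19.0, 18.5 and 24.1 in Erg, 8.22, 3.82 and 2.80 in Sox17 and 27.1, 19.8 and 18.1 CPM in SEG. SEG then also lay above control, with 1.30 ± 0.27 (adjusted p = 0.000485) and 1.15 without both outlying libraries, beside 1.23 ± 0.27 (adjusted p = 0.000835) with Erg. With Sox17 it fell by 0.81 (adjusted p = 0.0172) and by 1.35 without both outlying libraries (adjusted p = 9.11e-07), and the first of these calls was lost without replicate 1 of control or replicate 2 or 3 of Sox17. From day 3 to day 7 the SEG effect changed by 1.47 ± 0.39 (adjusted p = 0.0171), and 1.27 (adjusted p = 0.0622) without replicate 3 of control at day 3.

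Cox4i2, the lung form of subunit 4, was scarce but showed a like pattern at day 7. It read 0.794, 0.591 and 0.381 CPM in control, 1.11, 1.91 and 2.01 in Erg, 1.14, 0.246 and 0.340 in Sox17 and 3.06, 1.07 and 1.51 CPM in SEG at day 7. Erg and SEG lay above control without overlap, with log2 changes of 1.53 ± 0.54 (adjusted p = 0.0245) and 1.68 ± 0.54 (adjusted p = 0.0154), the latter 1.19 (adjusted p = 0.0231) without both outlying libraries. The Erg call ended without any 1 of 4 libraries (adjusted p then 0.0581 to 0.101), and the SEG call without replicate 3 of control (1.43 (adjusted p = 0.0742)) or replicate 1 of SEG (1.19 (adjusted p = 0.103)). At day 3 it read 0.335, 1.14 and 0.461 CPM in control and 1.69, 1.46 and 1.70 in Erg, a change of 1.31 ± 0.54 that did not pass (adjusted p = 0.0534). Of all tested genes Cox4i2 was the one whose 8 group means were most like those of Ndufa4l2, with r = 0.978. Epas1, which encodes the oxygen-sensing factor HIF-2 alpha, changed by 0.97 (adjusted p = 0.000897) with Erg, −0.45 (adjusted p = 0.104) with Sox17 and 0.82 (adjusted p = 0.00427) with SEG at day 3, and by −0.14 (adjusted p = 0.622), −0.14 (adjusted p = 0.6) and 1.14 (adjusted p = 0.000179) at day 7. Hif1a, which encodes HIF-1 alpha, had −0.49 (adjusted p = 0.104), −1.08 (adjusted p = 0.00103) and −0.63 (adjusted p = 0.0421) at day 3 and −1.02 (adjusted p = 0.00152), −1.41 (adjusted p = 5.55e-05) and −1.08 (adjusted p = 0.000937) at day 7.

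The muscle forms Cox6a2, Cox7a1 and Cox8b gave few counts, so their ratios are given with 95% counting intervals, which cover counting error only. Cox8b stood higher at day 7 than at day 3 in control, Sox17 and SEG. It passed the count minimum only through the day 7 libraries of these groups. Its contrasts with those libraries therefore follow in part from how members were chosen. Control held 4, 1 and 6 counts at day 3 and 32, 21 and 34 at day 7, a ratio of 7.21 (3.84 to 15.0) after scaling. Sox17 held 0 counts in all 3 libraries at day 3 and 132, 28 and 18 at day 7, so against a floor of 3 counts over the group it was at least 52.4-fold higher, and at least 23.0-fold higher without the outlying replicate. In SEG the ratio of day 7 to day 3 was 39.6 (10.6 to 333). With Erg Cox8b stayed low, at 4, 4 and 6 counts at day 7, 0.136 (0.0714 to 0.241) of control. Against the same floor, Cox8b in Sox17 at day 3 lay at least 6.02-fold below control. Cox6a2 was lower than control with Erg, by ratios of 0.288 (0.163 to 0.488) at day 3 and 0.186 (0.0872 to 0.362) at day 7. With Sox17 at day 3 its ratio was 0.133 (0.0647 to 0.251). With SEG at day 3 its log2 change was −1.49 (adjusted p = 0.0574), and −1.50 (adjusted p = 0.00916) without both outlying libraries. At day 7 Sox17 and SEG had −0.50 and 0.64 (adjusted p = 0.461 and 0.367), and −1.61 and 0.36 (adjusted p = 0.0127 and 0.524) without both. Cox7a1 went up with Erg at day 3, with 8, 3 and 3 counts in control and 18, 23 and 38 in Erg at a ratio of 4.47 (2.51 to 8.54). In SEG at day 7 it held 0, 2 and 1 counts, a ratio to control of 0.113 (0.0218 to 0.373). Heart muscle markers did not move with all of these forms. At day 3 a set of 10 markers summed to 52.9 to 56.7 CPM in control and 11.6 to 12.9 in Erg, where Cox7a1 was higher. At day 7 Cox8b in SEG was not called against control (log2 change −0.35, adjusted p = 0.634). The markers then summed to 75.5 to 94.6 CPM in control, 10.7 to 14.1 in Erg, 23.8 to 73.8 in Sox17 and 9.93 to 16.0 in SEG. Nearly all of that was Tnnt2, and Myl3 was at 0 counts in 7 of the 8 groups. Their part in these results was not tested.

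At day 7 none of the 13 subunits encoded in mitochondrial DNA was called higher with Erg. Their summed level at day 7 was 18657, 19331 and 16905 CPM in control and 14872, 14656 and 16087 CPM in Erg, with no overlap, while the nuclear members were higher in Erg. Of the 13, 0 were higher and 1 lower with Erg at day 7 by edgeR (median log2 change −0.29; 0 higher and 1 lower at an unadjusted p under 0.05), where the background was 23.7% and 24.8%. Without both outlying libraries the counts were 0 and 8 (background 35.2% and 32.6%). The gene called lower with all libraries was mt-Co3, subunit 3 of complex IV, with −0.34 (adjusted p = 0.000969). At day 3 the sums stood the other way, at 15264, 15690.5 and 14784 CPM in control and 18991, 17913 and 21694 CPM in Erg. Of the 13, 2 were then called higher, a share below the background of 22.6%, mt-Atp6 by 0.66 (adjusted p = 0.00166) and mt-Nd6 by 0.60 (adjusted p = 0.0148). With Sox17 at day 7, a total of 4 were lower (background 25.0%, median −0.63), and 5 without both outlying libraries (background 28.3%, median −0.26). With SEG at day 7, a total of 2 were lower (background 21.8%, median −0.21), and 2 without both outlying libraries (background 26.7%, median −0.03).

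Other mitochondrial gene groups, from lists fixed for this comparison, moved in part. The background with Erg at day 7 was 23.7% higher and 24.8% lower, and 35.2% and 32.6% without both outlying libraries. The backgrounds with Sox17 and with SEG at day 7 differ from these and stand further above, beside the counts of members. Of 79 genes of the mitochondrial ribosome, which makes the 13 mitochondrial subunits, 16 were higher and 1 lower with Erg at day 7 (median 0.26), and 54 and 7 without both outlying libraries. With Sox17 at day 7 the counts were 26 higher and 1 lower, and 11 and 14 without both outlying libraries, so the share of higher genes fell below the background without them. Of 81 cytosolic ribosomal protein genes 3 were higher and 2 lower with Erg at day 7 (median 0.08; 32 and 13 without both outlying libraries, median 0.13). With Sox17 the counts were 2 higher and 1 lower (median 0.26), but 3 and 71 without both outlying libraries (median −0.38). Of the assembly factors, which put the complexes together, 1 was higher and 3 lower of 14 for complex I with Erg at day 7, 2 were higher and 1 lower of 6 for complex III, 5 were higher and 3 lower of 20 for complex IV, and 1 of 7 was higher for complexes II and V. Without both outlying libraries the higher and lower counts were 7 and 4, 3 and 1, 9 and 3 and 4 and 0. In the tricarboxylic acid cycle, which supplies NADH and succinate, 4 were higher and 1 lower of 13, the lower one being Idh3b, a subunit of isocitrate dehydrogenase, with −0.70 (adjusted p = 7.08e-07), and 8 and 1 without both outlying libraries. Of 18 genes of glucose uptake and glycolysis 7 were higher and 6 lower with Erg, 8 higher and 2 lower with Sox17 and 4 higher and 2 lower with SEG at day 7, and 8 and 9, 7 and 4 and 7 and 7 without both outlying libraries. Of 10 genes of pyruvate dehydrogenase and its kinases 3 were higher and 3 lower with Erg, with Pdk4, a kinase that switches the complex off, at −1.85 (adjusted p = 1.15e-06). Of 7 carriers of adenine nucleotides and uncoupling proteins 1 was higher and 1 lower with Erg at day 7, and of 3 electron carriers and subunits that the name rule does not take 2 were higher.

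Of 19 regulators of mitochondrial genes, 4 were higher and 5 lower with Erg at day 7, near the background of 23.7% and 24.8%. Ppargc1a, which encodes the coactivator PGC-1 alpha, read 2.61, 2.55 and 2.45 CPM in control and 0.0462, 0.196 and 0.213 in Erg, with no overlap. Its log2 change was −3.97 ± 0.55 (SE), adjusted p = 6e-06. It was lower with Sox17 too, at −3.54 (adjusted p = 6.7e-06), and with SEG at −1.12 (adjusted p = 0.0452). Tfam, the packaging and transcription factor of mitochondrial DNA, had −0.27 (adjusted p = 0.00664) with Erg. Nrf1 and Gabpa, which encode factors that bind respiratory chain promoters, had 0.22 (adjusted p = 0.0744) and −0.09 (adjusted p = 0.792). Esrra, the nuclear receptor ERR alpha, had −0.08 (adjusted p = 0.672) with Erg and 0.97 (adjusted p = 1.31e-05) with Sox17 at day 7, the latter 0.75 (adjusted p = 3.23e-08) without both outlying libraries. Cycs, which encodes the cytochrome c that links complexes III and IV, rose in all 3, by 0.58 (adjusted p = 0.000556), 0.65 (adjusted p = 0.000146) and 0.62 (adjusted p = 0.000271). Ndufab1, the acyl carrier protein of complex I that the name rule does not take, rose with Erg by 0.69 (adjusted p = 0.000954). Atpif1, the inhibitor of ATP synthase, had 0.57 (adjusted p = 0.0923) with Erg and 1.30 (adjusted p = 0.000464) with Sox17, the latter 0.63 (adjusted p = 5.34e-07) without both outlying libraries.

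Markers of several cell types also differed between the groups. Macrophage markers, 8 on a fixed list and none at 0, summed to 43.3 to 54.1 CPM in control and 214 to 225 CPM in Erg at day 7, with C1qa in the lead, against 36.2 to 74.3 in Sox17 and 49.6 to 72.5 in SEG. At day 3 these macrophage markers summed to 25.4 to 25.8 CPM in control and 34.6 to 39.8 CPM in Erg. Fibroblast markers summed to 22692 to 24123 CPM in control and 10112 to 11414 CPM in Erg at day 7. Markers of pericytes and smooth muscle summed to 142 to 159 CPM in control, 616 to 693 in Erg, 2572 to 4368 in Sox17 and 1838 to 2117 in SEG, and endothelial markers to 25.9 to 29.9, 156 to 169, 154 to 387 and 1997 to 2319 CPM. SEG had the highest endothelial markers. Of its 82 log2 changes against control at day 7, 62 were above 0, and 46 without both outlying libraries. The part of these cell types in the results was not tested.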

How the data were processed

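RNA was purified with an RNeasy kit and the libraries were sequenced by Novogene, per the labels' protocols. The authors deposited whole-number counts per gene for 24 libraries. The submitters' processing notes name Salmon, DESeq2 and mm10. Tool versions and order, strandedness, annotation release and whether values were rounded are not stated in any source at hand. All columns were mapped to a sample by their names.

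Gene symbols, types, positions and transcript lengths came from GENCODE's annotation of mm10 (35422 of 35727 identifiers matched). Genes passing edgeR's filterByExpr with a minimum count of 10 (14804) were scaled by TMM and fitted with the quasi-likelihood model of edgeR 4.0.16 (R 4.3.3, limma 3.58.1) with 8 group means over all 24 libraries, giving 17 comparisons with Benjamini-Hochberg adjustment over all tested genes in each. Levels are CPM on the TMM-scaled library sizes, and log2 changes come from the fit at edgeR's default prior count. A prior count of 2 entered only the log2 CPM, such as those behind the length trends. Alternatives were relative log expression scaling, no filter, the replicate number as a block, DESeq2 1.42.0, omission of each library, omission of both outlying libraries (15003 genes), offsets for transcript length (14763 genes) and a test beyond 1.5-fold. Tables and figures used Python 3.11.15, pandas 2.3.3 and matplotlib 3.10.9. The fit was tested on simulated data for the day 7 Erg contrast over 14340 genes. It called 67 of the 100 genes given a 2-fold change, 24 of the 100 given a 1.5-fold change, and 3 unchanged genes. The libraries behind these counts were simulated without any trend with transcript length. They therefore do not show how many false calls such a trend in the real day 7 libraries would bring.

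The members, gene lists and tests were chosen with earlier results of these data known. Named members were the 3 largest rises and falls among called members of a comparison, a set of complex IV forms, Sdha to Sdhd and listed regulators, among them Atpif1, which the name rule does not take. From each other list, up to 2 called genes in each direction could be named. Likeness between genes was Pearson's r over the 8 group means.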

Additional observations from a re-analysis of the deposited data

Results flagged for a closer look

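For 6 members a test of the difference itself found that a condition's effect against control was not the same at day 7 as at day 3, and these 6 results are given as values. The counts, 4 for Erg and 1 each for Sox17 and SEG, are below the share of all tested genes called higher (9.34%, 7.61% and 6.09%). The effect of Erg was higher at day 7 by 0.71 on the log2 scale for Atp5b, by 0.34 for Uqcrc2, by 0.32 for Ndufs1 and by 0.23 for Sdha. The effect of Sox17 was higher at day 7 by 5.44 for Cox8b, a fitted value that depends on the prior count, since all 3 Sox17 libraries of day 3 held 0 counts. Cox8b also passed the count minimum only through day 7 libraries. The Cox8b call ended without any 1 of 5 libraries (adjusted p then 0.0519 to 0.0919). The effect of SEG was higher at day 7 by 1.47 for Ndufa4l2.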

How the results depend on the processing

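Of the calls of single members named above, 711 checks with other settings kept direction and side of the threshold and 77 lost the call. The test for changes beyond 1.5-fold accounted for 57 of the 77 and kept 38 of 95 calls. Of the checks that left out 1 library 2109 kept both, 170 lost the call and 1 turned. The last was Uqcr11 in SEG against Sox17 at day 7, with a log2 difference of 0.026 without replicate 1 of Sox17 at day 7, and a range of −1.17 to 0.026 over the omission of each library. Counts of called members moved far more, and the cause was not tested beyond the libraries named. A count is given below where it moved by more than 1.5 times. The share of all tested genes that were called differs between fits. It is given further above for part of these counts and is not repeated here or in the paragraphs that follow. Where it is not given, a count does not show whether the members lay above or below the background. Without both outlying libraries these counts moved for Erg day 3 (28 higher and 15 lower), Sox17 day 3 (21 higher and 7 lower), SEG day 3 (17 higher and 10 lower), Erg day 7 (69 higher), Sox17 day 7 (26 higher and 8 lower) and SEG day 7 (14 higher and 13 lower). Between conditions the same fit gave SEG against Erg day 3 (14 higher and 20 lower), SEG against Sox17 day 3 (3 higher and 12 lower), SEG against Erg day 7 (70 lower) and SEG against Sox17 day 7 (4 higher). For time and its interaction it gave control over time (5 higher and 32 lower), Erg over time (61 higher and 2 lower), Sox17 over time (4 higher and 18 lower), SEG over time (30 lower), the change of the Erg effect (64 higher and 2 lower), the change of the Sox17 effect (6 higher) and the change of the SEG effect (2 higher and 2 lower). Without replicate 3 of Erg at day 7 in addition, chosen after seeing the data, the counts were Erg day 7 (65 higher and 4 lower), SEG against Erg day 7 (63 lower), Erg over time (49 higher and 4 lower) and the change of the Erg effect (58 higher and 2 lower). Length offsets gave Erg day 3 (14 higher and 11 lower), Sox17 day 3 (14 higher), SEG day 3 (12 higher and 9 lower), Erg day 7 (6 lower), Sox17 day 7 (5 lower) and SEG day 7 (14 higher and 9 lower) against control. They gave SEG against Erg day 3 (13 higher), SEG against Sox17 day 3 (2 higher and 6 lower), SEG against Erg day 7 (7 higher and 33 lower) and SEG against Sox17 day 7 (5 higher and 30 lower) between conditions, and control over time (8 higher and 10 lower), Erg over time (22 higher and 3 lower), Sox17 over time (21 higher and 4 lower), SEG over time (8 higher and 9 lower), the change of the Erg effect (17 higher and 3 lower), the change of the Sox17 effect (8 higher) and the change of the SEG effect (4 higher). They also moved the mean summed level of control to 6694 CPM at day 3 and 6224 CPM at day 7. A test for changes beyond 1.5-fold, which is stricter by construction, gave Erg day 3 (0 lower), Sox17 day 3 (1 higher), SEG day 3 (0 higher), Erg day 7 (3 higher), Sox17 day 7 (6 higher and 0 lower) and SEG day 7 (3 higher and 1 lower) against control. Elsewhere it gave SEG against Erg day 3 (0 higher and 4 lower), SEG against Sox17 day 3 (0 higher), SEG against Erg day 7 (2 higher and 1 lower) and SEG against Sox17 day 7 (1 higher and 2 lower), and control over time (0 lower), Erg over time (1 higher), Sox17 over time (3 higher), SEG over time (3 higher and 0 lower), the change of the Erg effect (0 higher), the change of the Sox17 effect (0 higher) and the change of the SEG effect (0 higher). DESeq2 gave SEG day 3 (2 lower), Sox17 day 7 (1 lower), SEG against Sox17 day 3 (2 higher), SEG against Erg day 7 (20 lower), SEG against Sox17 day 7 (21 lower), Sox17 over time (21 higher), SEG over time (1 lower), the change of the Erg effect (1 lower) and the change of the Sox17 effect (4 higher). With no filter on low counts there were Sox17 day 7 (1 lower), SEG over time (0 lower) and the change of the Erg effect (2 higher). Scaling by relative log expression moved no count by that much.

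Replicate numbers are shared between the groups, and nothing says whether equal numbers mark a shared culture or batch. Correlations of deviations from the group means ran from −0.416 to 0.690 (median 0.00276) over 84 pairs with the same number and from −0.632 to 0.482 (median 0.00561) over 168 pairs with different numbers. With the replicate number as a block, 30 members were higher and 2 lower with Erg at day 7, and the counts that moved were SEG day 3 (2 lower), Erg over time (1 lower) and the change of the Erg effect (1 lower). The block together with length offsets gave Erg day 3 (15 higher and 11 lower), Sox17 day 3 (13 higher), SEG day 3 (12 higher and 8 lower), Erg day 7 (44 higher and 6 lower), Sox17 day 7 (5 lower) and SEG day 7 (14 higher and 10 lower) against control. Between conditions both gave SEG against Erg day 3 (13 higher), SEG against Sox17 day 3 (2 higher and 6 lower), SEG against Erg day 7 (7 higher and 35 lower) and SEG against Sox17 day 7 (5 higher and 29 lower), and for time and its interaction control over time (8 higher and 10 lower), Erg over time (21 higher and 3 lower), Sox17 over time (21 higher and 4 lower), SEG over time (8 higher and 9 lower), the change of the Erg effect (16 higher and 3 lower), the change of the Sox17 effect (6 higher) and the change of the SEG effect (3 higher).

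When 1 library was left out at a time, the counts of higher and of lower members ran as follows. Against control they were 4 to 18 and 3 to 13 for Erg day 3, 2 to 8 and 4 to 5 for Sox17 day 3, 2 to 10 and 0 to 7 for SEG day 3, 14 to 65 and 2 to 3 for Erg day 7, 12 to 70 and 0 to 7 for Sox17 day 7 and 6 to 26 and 2 to 3 for SEG day 7. Between conditions they were 3 to 10 and 4 to 13 for SEG against Erg day 3, 1 to 3 and 1 to 4 for SEG against Sox17 day 3, 2 to 5 and 6 to 49 for SEG against Erg day 7 and 1 to 7 and 2 to 63 for SEG against Sox17 day 7. Over time they were 2 to 4 and 1 to 15 for control over time, 1 to 48 and 0 to 2 for Erg over time, 3 to 57 and 0 to 10 for Sox17 over time and 3 to 8 and 0 to 6 for SEG over time, and in the tests of a change between the days 2 to 42 and 0 to 2 for the change of the Erg effect, 0 to 36 and 0 to 0 for the change of the Sox17 effect and 0 to 3 and 0 to 0 for the change of the SEG effect. Libraries of other groups moved a count through the error that all groups share in the fit, so a change of count there is no change of level. Counting error limits the muscle forms below 5 CPM, as their intervals above show.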
